A study of Homo sapiens with 4 samples.

Results

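RNA that stayed on streptavidin beads with biotin-carrying miR-491-5p was compared here with RNA that stayed on beads with a biotin-carrying control miRNA, in the human ovarian cancer line IGROV1-R10. The comparison took every gene whose normalised count averaged 50 or more over the 2 pull-down libraries, scaled by size factors from these libraries alone. That rule kept 13236 of 60554 genes in the table, and the kept genes held 99.7% of the pull-down counts. One group was the pull-down from cells transfected with miR-491-5p at 60 nM, and the other the pull-down from cells given at the same dose the worm control, which the design text calls cel-miR-65. Nuclei and debris were spun out of a mild detergent lysate, a 10% share was kept as input, and the rest was held on the beads for 4 h and washed 5 times. Beads had been blocked with serum albumin and yeast tRNA, for both miRNAs alike. Each of the 4 libraries (2 inputs, 2 pull-downs) is 1 pool of RNA from 3 experiments, so no spread between experiments could be measured and no test was made. All values describe these libraries of a single cell line.

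MicroRNAs are short RNAs that an Argonaute protein holds and presents to other RNAs. Pairing mostly starts at the seed, near the 5′ end of the miRNA, and a bound mRNA is usually silenced with the help of TNRC6 proteins and deadenylases. A miRNA with biotin at one end lets RNA be collected through the bait itself, together with whatever binds the bait, the proteins around it or the bead. miR-491-5p has been studied in ovarian cancer for its action on BCL2L1, which encodes the survival protein BCL-xL.

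The bait is shown because the seed is what a target site would pair with. RefSeq (GRCh38.p14) places its mature form at chr9:20716120-20716141 on the plus strand. The capitals mark the seed, bases 2 to 8.
hsa-miR-491-5p: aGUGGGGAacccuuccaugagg
Of 2370 mature human miRNAs in the RefSeq table only miR-491-5p has this seed, and RNA letters that pair with it without a mismatch read UCCCCAC. Transcript sequences were not used here, so no site was searched for in the genes below. The precursor locus itself (ENSG00000207609, chr9:20716100-20716209) had 24 counts in the miR-491-5p pull-down and 10 in the control pull-down, which is under the minimum of the comparison.

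The 2 pull-downs were deep and of nearly equal size, with 61705443 counts on the miR-491-5p side and 62582646 on the other. The inputs had 59588552 and 47679684. A gene was called higher or lower where the normalised count plus 1 differed at least 2-fold and the 95% counting interval of the log2 ratio excluded 0. These intervals cover counting error only, and at this depth 74.5% of all measured genes had an interval that excluded 0, so the fold carries the call. Positive log2 ratios mean more RNA in the miR-491-5p pull-down. Markers for the labelled cell type were present: 11 of 14 ovarian carcinoma markers were measured, led by KRT8, and PAX8 stood at 15238 against 10160 normalised counts. No hepatocyte, fibroblast, immune or erythroid marker reached the minimum. Of 4 endothelial markers, PECAM1 and CDH5 were measured, and CDH5 (VE-cadherin) had 3967 against 8217 normalised counts. The control input stood apart from the other libraries by liver transcripts, with 1298 counts of ALB against 5 in the miR-491-5p input, while the pull-downs had 0 and 2. It does not enter the ratios between the pull-downs. It does enter the input ratios and every ratio of the control beads over input given below, where its part was not tested.

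Most genes differed less than 2-fold between the baits. The median log2 ratio was 0.00, which the size factors from these 2 libraries set near 0 in advance. Around it the middle 50% of genes lay between -0.30 and 0.30, and 93.9% of genes were not called. Of all measured genes, 342 (2.58%) were called higher and 460 (3.48%) lower on the miR-491-5p beads. The lower side reached further. There were 56 genes at least 4-fold lower against 19 at least 4-fold higher, and 8 at least 8-fold lower against 2 at least 8-fold higher. It also held more RNA: the lower genes took 10.8% of the control pull-down counts and 4.55% of the miR-491-5p pull-down counts, whereas the higher genes took 2.27% of the miR-491-5p and 0.811% of the control pull-down counts. Scaling by total counts would add 0.16 to every log2 ratio and turn the split to 576 higher and 289 lower genes, so the balance of the 2 sides depends on the scaling. Upper-quartile scaling gave 263 and 581.

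**Figure D1:**
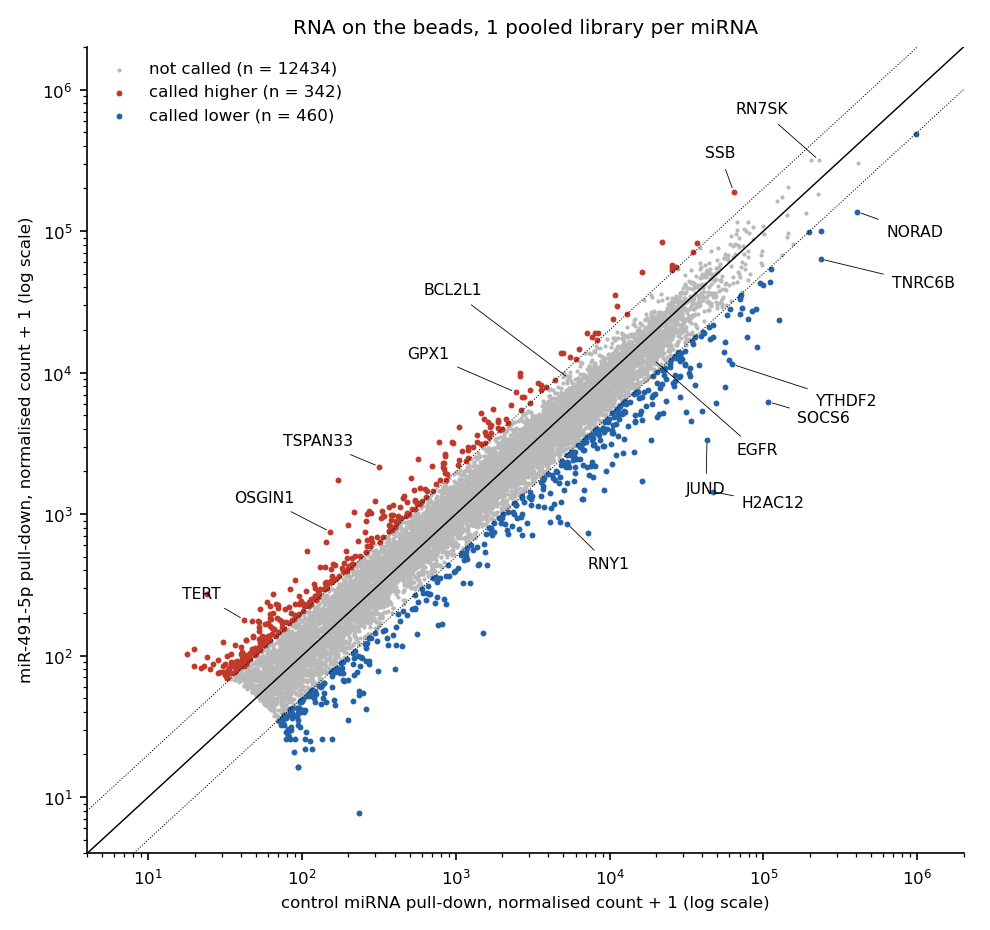
Normalised count plus 1 of each of 13236 genes in the control pull-down (x axis, log scale) and the miR-491-5p pull-down (y axis, log scale), with 1 pooled library per axis. Red and blue points are the 342 higher and 460 lower genes, the solid line marks equal counts and the dotted lines 2-fold. SOCS6, JUND and H2AC12 lie far below the diagonal at high control counts, and SSB above it.

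The 12 protein-coding genes that ranked highest on the miR-491-5p beads have differing known functions. In what follows a pair of values is given with miR-491-5p first. TSPAN33, a tetraspanin membrane protein, had 2165 normalised counts with miR-491-5p against 316 with the worm miRNA, a log2 ratio of 2.77 (95% counting interval 2.60 to 2.94). Its inputs were alike, with 485 and 472. OSGIN1, an oxidative stress response gene, had 749 against 151 (log2 2.30, interval 2.04 to 2.56). The catalytic subunit of telomerase, TERT, had 178 against 41 (log2 2.09, interval 1.60 to 2.59) from inputs of only 19 and 45. All 3 were scarce in the lysates, beside a median input level of 1373 normalised counts over all genes. The others of the 12 were C19orf33 (2.15), PLEKHD1 (2.11), CLEC2L (2.09), METTL27 (2.08), BBLN (2.06), the palmitoyltransferase ZDHHC12 (2.06), YPEL3 (2.05), SPNS3 (2.04) and ERF, an ETS-family repressor (1.98). For YPEL3 the inputs already differed the same way, 69.0 against 23.1 (log2 1.54, interval 0.79 to 2.28). Input log2 ratios of the rest of these ran from -0.58 (ERF) to 0.35 (SPNS3).

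The following genes were among the highest on the miR-491-5p side of abundant coding genes, those averaging 5000 or more. Their known functions differ. ELOVL1, which elongates very long fatty acids, had 9932 against 2616 normalised counts (log2 1.92), and ATP6V0D1, a subunit of the proton pump of lysosomes, had 9496 against 2623 (log2 1.86). Both were below their input on the control beads and above it on the miR-491-5p beads. UQCRH, a subunit of respiratory complex III, had 35232 against 10816 (log2 1.70). SSB, the La protein that binds ends of RNA polymerase III transcripts, was more abundant, with 189867 against 64030 (log2 1.57, interval 1.56 to 1.58). Its mRNA was above input on both kinds of bead, by log2 2.68 on the miR-491-5p beads and 1.14 on the others.

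Several of the lower genes were abundant on the control beads. SOCS6, a brake on cytokine and receptor kinase signalling, had 6213 against 107592 normalised counts, a log2 ratio of -4.11 (interval -4.15 to -4.08). Its input ratio went the other way, 5136 against 2604. JUND, a subunit of the AP-1 transcription factor, had 3359 against 42941 (log2 -3.68, interval -3.73 to -3.63), from inputs of 1992 and 1810. Against the inputs, SOCS6 stood at log2 0.04 on the miR-491-5p beads and 5.13 on the control beads, and JUND at 0.52 and 4.33. For both genes the miR-491-5p beads lay closer to the lysate and the control beads far above it.

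The lowest coding value belonged to the histone gene H2AC12, with 1440 against 46688 normalised counts (log2 -5.02, interval -5.09 to -4.94), followed on the histone side by H2BC7 with 5334 against 39699 (log2 -2.90). Histone genes have near-identical copies and short neighbours, and counting ignored strand, so reads at such loci cannot be assigned with certainty. The other lowest genes were POLR1H, an RNA polymerase I subunit (-3.39), GLYR1, a nucleosome-binding cofactor (-3.30), CENPA, the centromeric histone H3 variant (-3.24), CLPTM1L (-3.01), the splicing factor SYF2 (-2.90), FBXO34 (-2.83), DNER (-2.64) and CHPT1, an enzyme of phosphatidylcholine synthesis (-2.62). FBXO34 is an example of size: it had 7848 against 55916 normalised counts from inputs of 3103 and 2475. A tRNA gene named by position, TRI-TAT2-3 at chr6:27631409-27631532, had 6.66 against 233 (log2 -4.93, interval -5.98 to -3.88) and was picked after its value was seen. Yeast tRNA was in the blocking buffer of both bead sets, and its part in this count was not tested.

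The values at the top of the whole table belong to 2 unnamed genes, also picked after their values were seen. ENSG00000227063 (chr20:21755270-21755350) had 269 against 23.1 normalised counts (log2 3.49, interval 2.87 to 4.11), and ENSG00000261069 (chr15:25087661-25088896) had 1740 against 170 (log2 3.35, interval 3.12 to 3.58). They reached that ratio differently. Against its input, ENSG00000227063 stood at log2 -0.50 on the miR-491-5p beads and -4.19 on the control beads. ENSG00000261069 stood at 4.09 on the miR-491-5p beads and 0.45 on the control beads.

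Set against the lysates, the higher and lower genes were not mirror images. Pull-down over input was taken within each transfection, with size factors over the 4 libraries. Of 342 higher genes, 113 (33.0%) were at least 2-fold above input on the miR-491-5p beads, against 7.50% of all measured genes. A similar number, 122 (35.7%), were at least 2-fold below input on the control beads, against 9.18% of all genes. The median bead-over-input log2 ratio of the higher genes was 0.60 on the miR-491-5p beads and -0.76 on the others. Of 460 lower genes, 305 (66.3%) were at least 2-fold above input on the control beads, against 10.8% of all genes, and only 35 (7.61%) were at least 2-fold below input on the miR-491-5p beads, against 4.47% of all genes. Their median was -0.17 on the miR-491-5p beads and 1.38 on the others. Since the calls used the pull-down counts, these shares are a description of where the calls came from.

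**Figure D2:**
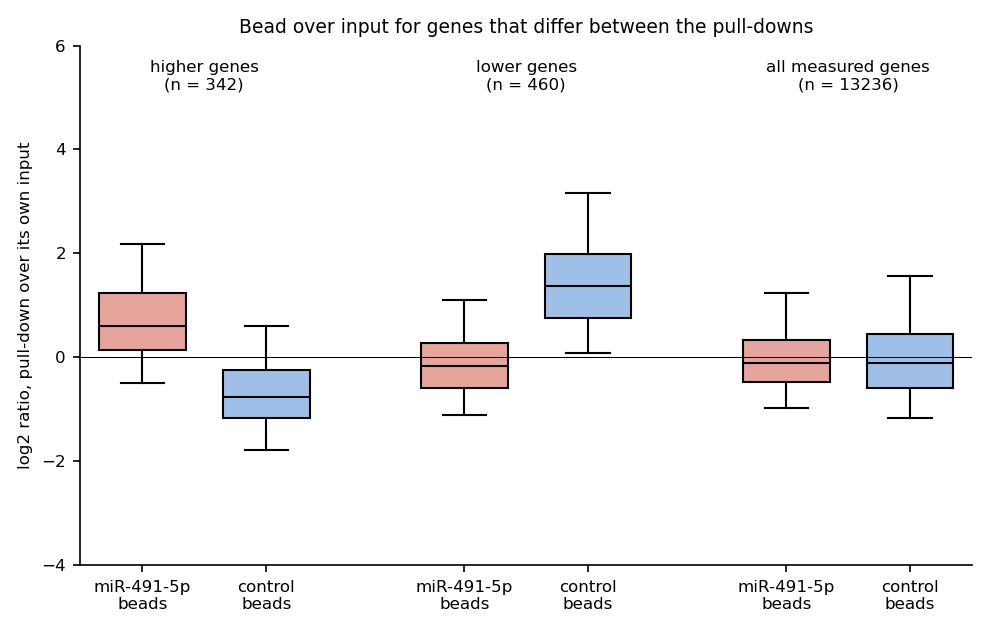
Log2 ratio of each pull-down over its own input (y axis) for the 342 higher genes, the 460 lower genes and all 13236 measured genes, on miR-491-5p beads (red) and control beads (blue). Boxes span the quartiles with the median as a line and whiskers the 5th to 95th percentiles. The medians are 0.60 and -0.76 for the higher genes, and -0.17 and 1.38 for the lower genes.

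The inputs, which the calls did not use, leaned the opposite way. Among the higher genes, 58.8% had a lower normalised count in the miR-491-5p input than in the control input, against 50.5% of all genes, and the median input log2 ratio was -0.07. Among the lower genes, 62.6% had a higher count in the miR-491-5p input, against 49.5% of all genes, with a median of 0.14. The counting interval of the input ratio lay above 0 for 45.4% of lower genes and for 28.3% of all genes. It lay below 0 for 33.0% of higher genes and 28.4% of all genes. YTHDF2, a reader of methylated adenosine that recruits deadenylases, is a clear case: it had 11460 against 62494 normalised counts on the beads (log2 -2.45) and 10390 against 5164 in the inputs (log2 1.01). PIAS3, an inhibitor of STAT3, had 955 against 4608 on the beads (log2 -2.27) and 877 against 374 in the inputs. Higher genes were also less abundant at this minimum, with a median input level of 216 normalised counts against 1115 for lower genes and 1373 for all. The minimum was set on the mean of the 2 pull-downs, so a scarce gene could pass through the bead set where it was high. At a minimum of 200, 188 genes were called higher and 336 lower. The part of the minimum in this difference was not tested.

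Of 15 genes reported elsewhere as miR-491-5p targets, 12 were measured. The list was drawn from background knowledge, but with earlier results of these data known, so it is not an independent choice. Their median log2 ratio was 0.41, beside 0.00 for all genes, with 7 of 12 above 0. Of the 12, 1 was called higher, beside 2.58% of all genes, and none lower, beside 3.48%. The called gene was FGFR4, a growth factor receptor, with 758 against 369 normalised counts (log2 1.04, interval 0.86 to 1.22). Its input was nevertheless lower with miR-491-5p, at 394 against 556. BCL2L1 had 9073 against 5441 (log2 0.74, interval 0.69 to 0.79), from inputs of 4385 and 6332. FOXP4 (0.77), the GTPase-activating scaffold GIT1 (0.72), the glycolytic enzyme PKM (0.66), the demethylase KDM4B (0.45) and the spindle protein TPX2 (0.36) were also above 0. The remaining targets lay below 0. EGFR had 12417 against 19123 (log2 -0.62, interval -0.66 to -0.59) from inputs of 6987 and 14469, and HMGA2 had the same log2 ratio of -0.62. SMAD3 (-0.69), CDK6 (-0.65) and IGF2BP1 (-0.22) completed the list. The listed targets split in direction on the beads. In the inputs all 12 were lower with miR-491-5p, beside 50.5% of all genes, with a median log2 ratio of -0.48. Over their own input they had a median of 0.56 on the miR-491-5p beads and -0.32 on the control beads, and EGFR stood at 0.59 and 0.16.

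Of 14 measured genes of the silencing machinery 3 were called, all lower, beside 3.48% of all genes. The called genes were the TNRC6 genes, whose proteins link Argonaute to the deadenylases. TNRC6B had 63463 against 235879 normalised counts (log2 -1.89, interval -1.91 to -1.88). TNRC6A had 27047 against 83797 (log2 -1.63), and TNRC6C had 5206 against 11992 (log2 -1.20). All 3 mRNAs were nevertheless above input on both kinds of bead, with medians of log2 2.10 on the miR-491-5p beads and 3.78 on the control beads. The Argonaute genes were not called: AGO1 had a log2 ratio of 0.45, AGO2 of 0.41, AGO3 of 0.17 and AGO4 of -0.79. In the list for deadenylation, decapping and P-bodies (26 measured, median -0.05), LSM14A had 6770 against 28879 (log2 -2.09) and the helicase DDX6 had 43182 against 94278 (log2 -1.13). PATL1, a decapping partner, was called on the other side at 1.01. Of 16 genes of the adenosine methylation machinery YTHDF2 alone was called, and the list median was -0.06. In the list of nonsense-mediated decay and the exosome 1 gene of 25 was called, the exosome subunit EXOSC3 (-1.60). These single lower calls are 6.25% and 4% of their lists, beside 3.48% of all genes.

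The list for EGFR, RAS and PI3K signalling had 37 measured genes and a median of -0.22. In it 1 gene was called higher and 4 were called lower, beside 2.58% and 3.48% of all genes. Of the lower genes, 3 encode feedback inhibitors of the pathway. SPRY1 had 9922 against 32908 normalised counts (log2 -1.73, interval -1.76 to -1.70), SPRY2 had 3877 against 8195 (log2 -1.08), and the ERK phosphatase DUSP6 was at -1.16. Inputs moved with these values: the 3 measured Sprouty genes had a median input log2 ratio of -0.44, and DUSP6 stood at -0.55. The remaining lower gene was RICTOR, of mTOR complex 2 (-1.24). MAPK3, the kinase ERK1, was the higher gene, with 986 against 375 (log2 1.39). Over its own input the list had a median of 0.10 on the miR-491-5p beads and 0.16 on the control beads, and the part of the inputs in its pull-down ratio was not tested. Among the anti-apoptotic BCL-2 genes, MCL1 had 34004 against 69993 (log2 -1.04) and BCL2 had 64.7 against 187 (log2 -1.52), opposite in sign to BCL2L1. None of 12 pro-apoptotic relatives was called.

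Lists for cytokine, immediate-early and TGF-beta signalling had medians below 0. In the SOCS and PIAS list, 3 of 11 were called lower, beside 3.48% of all genes (SOCS6, PIAS3 and SOCS3, the last at -1.05) and CISH was called higher at 1.53. AP-1 and other immediate-early genes had a median of -0.43 over 20 genes, with 4 above 0. Between the inputs 15 of the 20 were also below 0, with a median of -0.34, and the bead-over-input medians were 0.46 with the miR-491-5p bait and 0.38 with the other. Only JUND and ATF3 (-1.01, input -0.68) were called, while FOS (0.29) and JUNB (0.08) were near 0. The TGF-beta and SMAD list also had a median of -0.43, and only 2 of its 21 genes were above 0. These were the ligand TGFB2, called at 1.49 (input 0.66), and SMAD4, uncalled at 0.15 (input 0.16). LTBP1 (-1.54) and the co-receptor TGFBR3 (-1.24) were called lower. Genes of G1 control had a median of -0.28 over 24 genes, with the transcription factor E2F3 (-1.03) and the inhibitor CDKN1A (-1.13) called lower. Of 20 p53 targets, CDKN1A, MDM2 (-1.20) and ZMAT3 (-1.09) were called lower, beside 3.48% of all genes, but the list median was 0.10.

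Several lists for the cell's basic machinery had medians above 0 with few calls. The 82 ribosomal protein genes had a median of 0.25 with 67 above 0. Of the 82, 6 were called higher and 1 lower, beside 2.58% and 3.48% of all genes. RPS15A had 29478 against 11219 normalised counts (log2 1.39), RPSA was at 1.16 and RPLP0 at 1.15, whereas RPL22 had 21861 against 47177 (log2 -1.11). The large-subunit and small-subunit genes were alike, with medians of 0.28 and 0.23. Glycolysis (17 genes, 0.40), the cytoskeleton (34 genes, 0.30), mitosis (30 genes, 0.23) and the proteasome (43 genes, 0.22) followed, with a single call among them, PFN1 (profilin, 1.18). In DNA replication (34 genes, median 0.29, 27 above 0) the helicase subunit MCM4 was called, with 53026 against 25263 (log2 1.07). Selenoproteins had 3 of 18 called higher, beside 2.58% of all genes: GPX2 at 1.88, GPX1 with 7261 against 2447 (log2 1.57), and SELENON. The first pair are peroxidases that detoxify hydrogen peroxide.

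Replication-dependent histone genes, whose mRNAs end in a stem-loop and not in a poly(A) tail, had the highest median among lists of at least 10 genes. It was 0.55 over 41 genes, and 38 were above 0. H4C16 (1.22), H2AC16 (1.18) and H3C1 (4415 against 2194, log2 1.01) were called higher, beside 2.58% of all genes. H2AC12 and H2BC7, described above, were the only called members on the other side, and H2BC14 (-0.20) was also below 0. The other 38 lay between 0.03 and 1.22. On both kinds of bead they were under their input, with median log2 ratios of -0.95 with the miR-491-5p bait and -1.36 with the other.

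**Figure D3:**
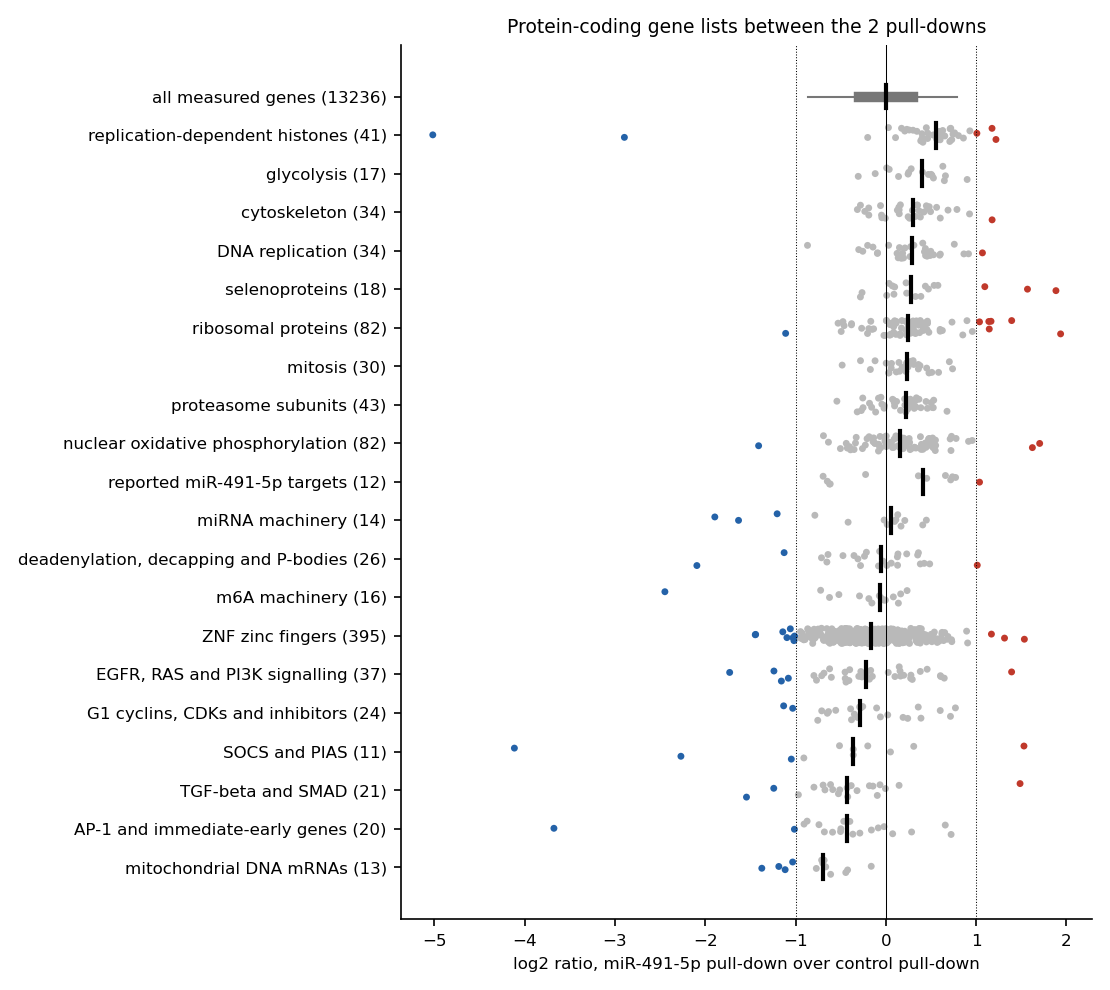
Log2 ratio of the miR-491-5p pull-down over the control pull-down (x axis) for each measured member of 20 protein-coding gene lists (points, with the number of genes in brackets). Black bars are medians, the dotted lines mark 2-fold, red and blue points are called genes, and the grey row shows the 5th to 95th percentile and the quartiles of all genes. Medians run from 0.55 for histones to -0.70 for mRNAs of mitochondrial DNA.

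All 13 mRNAs encoded by mitochondrial DNA were below 0, as were 49.6% of all genes, with a median of -0.70. Of the 13, 4 were called lower, beside 3.48% of all genes. COX3, the most abundant mRNA of the comparison, had 482345 against 986397 normalised counts (log2 -1.03). ATP6 had 9008 against 23344 (log2 -1.37), ND6 was at -1.19 and CYTB at -1.12. Their inputs were level, with a median input log2 ratio of 0.06. Both mitochondrial ribosomal RNAs were lower too (RNR2 -0.87, RNR1 -0.49), uncalled. The mRNAs are cut from shared primary transcripts of a single small genome, so they are not independent measurements. Nuclear genes for oxidative phosphorylation, in contrast, had a median of 0.16 over 82 genes. There UQCRH and NDUFB4 (1.62) were called higher and ATP5ME (-1.41) lower. Mitochondrial ribosomal proteins had a median of 0.17 over 74 genes, and MRPL33 had 4602 against 16204 (log2 -1.82).

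Among transcription and splicing regulators the zinc finger family had a median below 0. Of 395 ZNF zinc finger genes, 123 were above 0 (against 50.4% of all genes) and the median was -0.17. Under total counts it was -0.007, beside 0.17 for all genes. Called higher were 3 (0.759%) and lower 8 (2.03%), both under the 2.58% and 3.48% of all genes. ZNF644 (-1.45) and ZNF395 (-1.44) were lowest and ZNF384 (1.53) highest. Chromatin remodelers and methyltransferases had a median of -0.03, with 43 of 92 above 0. SMARCB1, of a chromatin remodelling complex, was called higher at 1.14, and ARID1A, of the same family of complexes, lower at -1.62. The inputs of SMARCB1 already differed the same way, 2154 against 1393 (log2 0.63). HDAC9, a class II histone deacetylase, had 23566 against 126406 (log2 -2.42) from inputs of 20431 and 20372. In the list for general transcription, with a median of 0.07, TAF9 was called higher (1.60) and the mediator subunit MED10 lower (-2.43). The splicing regulators had a median of -0.04, with SRSF9 lowest (-2.23). The core spliceosome had a median of 0.20, with SF3B4 (-1.24) the only gene called of 36, beside 3.48% of all genes called lower.

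Carboxylases carry biotin as a cofactor, which streptavidin binds, and their mRNAs were listed separately. Of 8 genes, 7 lay between -0.11 and 0.29. ACACA, acetyl-CoA carboxylase, had 99771 against 238094 normalised counts (log2 -1.25, interval -1.27 to -1.24). Its mRNA was far above input on both kinds of bead, by log2 3.70 on the miR-491-5p beads and 4.81 on the others, as the TNRC6 mRNAs were.

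Long noncoding RNAs as a class lay close to all genes. Of 637 measured lncRNA genes, 20 (3.14%) were called higher and 26 (4.08%) lower, beside 2.58% and 3.48% of all genes. The median was 0.02. The highest were TSNAX-DT with 110 against 18.9 normalised counts (log2 2.48) and ZFAND2A-DT with 1028 against 217 (log2 2.24), both transcribed away from the promoter of a coding gene. LOC101929767 (1.54), SNHG32 (1.38), EGOT (1.33) and LOC107983998 (1.31) came next. The lower side held far more abundant transcripts. NORAD, which binds Pumilio proteins, had 136811 against 407919 (log2 -1.58, interval -1.58 to -1.57), and FGD5-AS1 had 13941 against 55017 (log2 -1.98) from inputs of 10016 and 4014. SNHG6, a host of snoRNAs, had 2027 against 9469 (log2 -2.22) from inputs of 3795 and 1749, so its input ratio ran the other way. LINC01909 (-2.18), KAAG1 (-1.89) and LOC105370834 (-1.87) completed the 6 lowest. RNAs known to stay in the nucleus lay close to 0: MALAT1 had a log2 ratio of 0.16, NEAT1 of 0.28 and KCNQ1OT1 of 0.21.

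Of the lists with at least 3 measured genes, spliceosomal RNAs had the lowest median, over few genes. Spliceosomal snRNAs had a median of -0.97 over 10 genes, with 1 above 0. Of the 10, 4 were called lower and none higher, beside 3.48% and 2.58% of all genes. The 5 U5 genes had a median of -1.19, and among them RNU5B-1 had 77.1 against 310 normalised counts (log2 -1.99) and RNU5E-1 had 366 against 859 (log2 -1.23). RNU4-1 (-0.87) and RNU4-2 (-0.99) were lower without a call, while RNU1-1 was at 0.28. These genes have near-identical copies, and reads that fit several places were left out of the counts. RNY1, a Y RNA bound by Ro and La proteins, had 857 against 5286 (log2 -2.62, interval -2.73 to -2.52). The signal recognition particle RNA RN7SL2 (0.62) and RN7SK, which holds back a transcription elongation factor (0.46), were on the opposite side, so the polymerase III transcripts did not share a direction.

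Guide RNAs for RNA modification were few at this count minimum. H/ACA snoRNAs, which direct pseudouridine formation, had a median of -0.45 over 21 genes. SNORA49 (-1.37), SNORA80B (-1.26) and SNORA2A (-1.18) were called lower, beside 3.48% of all genes. C/D snoRNAs, which direct ribose methylation, had a median of -0.19 over 9 genes, with SNORD14E called higher at 1.21. Small Cajal body RNAs had a median of 0.55 over 8 genes. SCARNA21 had 644 against 229 normalised counts (log2 1.49), but its inputs were 173 and 78. SCARNA6 had 396 against 187 (log2 1.08) from inputs of 57.5 and 65.5. SCARNA1 was at -1.51 from inputs that differed the other way, 84.6 against 27.0. These medians moved with the count minimum: at a minimum of 10 they were 0.07 for C/D snoRNAs and 0.22 for Cajal body RNAs, and with no minimum the H/ACA median was -0.07.

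**Figure D4:**
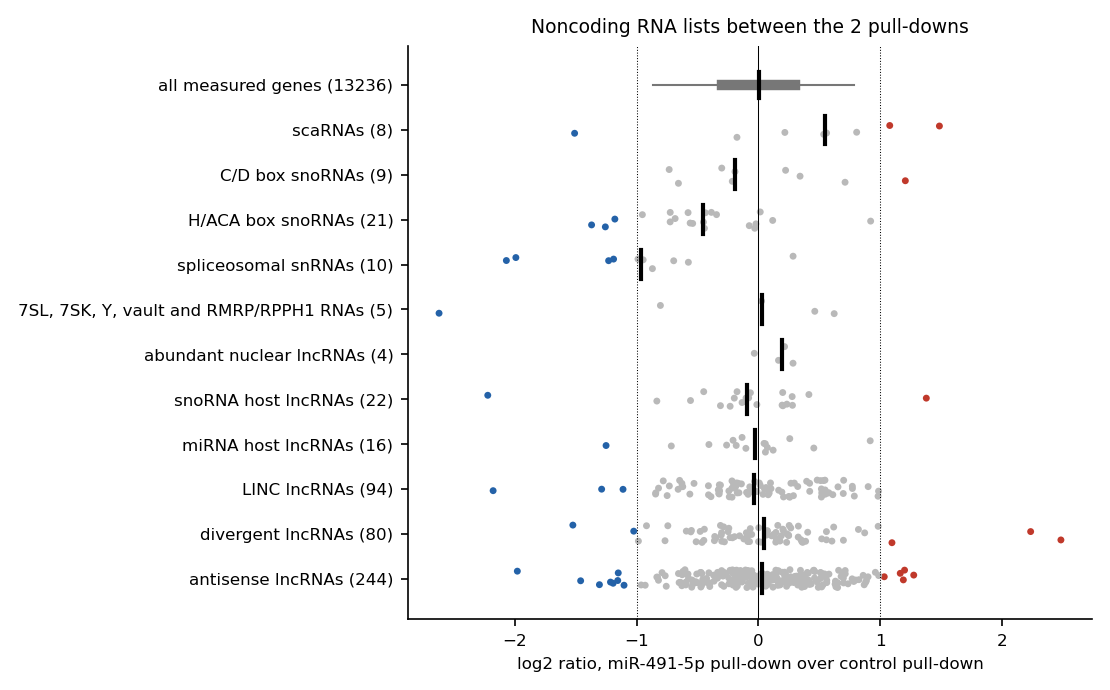
Log2 ratio of the miR-491-5p pull-down over the control pull-down (x axis) for each measured member of 11 noncoding RNA lists, drawn as in the plot of coding lists. Spliceosomal snRNAs have a median of -0.97, H/ACA snoRNAs of -0.45 and scaRNAs of 0.55, and the 3 largest lncRNA lists lie near 0.

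By position, chromosome 19 and 22 had the highest medians, 0.16 over 877 genes and 0.18 over 322 genes, and mitochondrial DNA the lowest. Chromosome 19 split by gene family, a split made after its median was seen. Its 195 ZNF genes had a median of -0.19. Its 588 other protein-coding genes had a median of 0.35, with 468 (79.6%) above 0, against 50.4% of all genes. In that group 36 (6.12%) were called higher and 11 (1.87%) lower, against 2.58% and 3.48% of all genes. The median ratio moved with gene length and abundance in small steps. Median log2 ratios were 0.05, 0.02 and -0.04 from short through middle to long exonic length, with 4412 genes in each class, and 0.09, 0.03 and -0.07 from low through middle to high input level. From low through middle to high input level, 226, 82 and 34 genes (5.12%, 1.86% and 0.771%) were called higher, beside 2.58% of all genes. Called lower were 183, 132 and 145 (4.15%, 2.99% and 3.29%), beside 3.48%. From short through middle to long exonic length, 4.06%, 2.63% and 1.07% were called higher and 4.26%, 3.38% and 2.79% lower. The part of length and input level in the differences between gene lists was not tested.

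**Figure D5:**
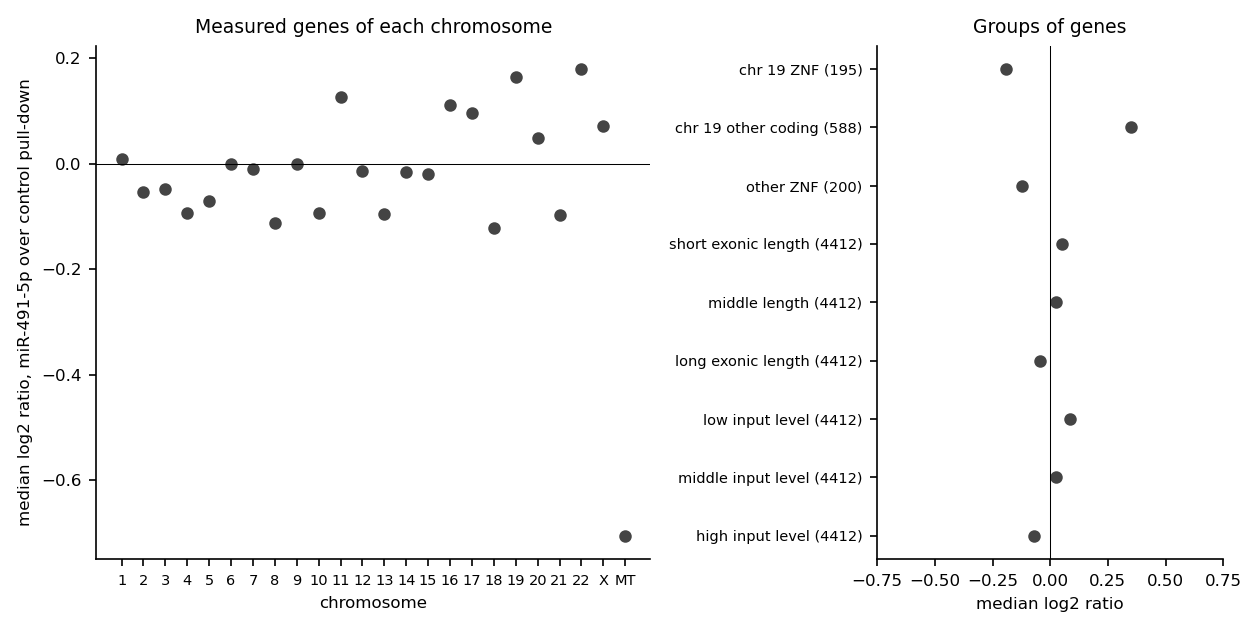
Median log2 ratio of the miR-491-5p pull-down over the control pull-down, left by chromosome (y axis, all measured genes), right (x axis) for chromosome 19 ZNF genes, other coding genes of chromosome 19, ZNF genes elsewhere, and 3 equal classes each of exonic length and input level, with the number of genes in brackets. Chromosome 19 coding genes outside the ZNF family lie at 0.35 and its ZNF genes at -0.19.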

How the data were processed

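Read counts per gene (whole numbers, no normalization) are as the authors deposited them. Per the file headers, featureCounts (1.5.0-p1) made them from hg38 alignments with GENCODE 24 genes, ignoring strand and leaving out duplicate and multi-mapped reads. STAR, GRCh38 and DESeq2 (1.10.1) are listed in the submitters' processing notes. Here the 2 pull-downs were scaled with DESeq2 1.42.0 size factors (1.05 for the miR-491-5p and 0.952 for the worm bait). Ratios are log2 of normalised count plus 1. The counting standard error adds 0.5 to each count, and intervals are at the 95% level by the normal approximation. Input values used size factors over all 4 libraries. Total counts per library were 47679684 to 62582646.

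Genes were named by position from RefSeq genes of the same build, in 5 stages settled after values had been seen: 12257 of 13236 measured genes (92.6%) got a name. With RefSeq moved by 3000000 bases, 2774 genes of the whole table still matched, against 41672 in place. Genes named in the text are the 12 highest and 12 lowest coding genes, 5 and 5 of those with a mean of at least 5000, 6 and 6 lncRNAs, 5 and 5 small RNAs, up to 3 and 3 of each list, and BCL2L1, EGFR and MIR491. All needed an interval excluding 0. One gene that the rule took is not reported here. Other list members are named where their values were of use. The members and the 67 lists were chosen with earlier results of these data known. The calculation was tested on simulated counts. Alternatives were other scalings, edgeR 4.0.16 among them, a pseudocount of 5, other count minimums and a stricter match of names. Next to the minimum, VMAC had a mean of 50.03 (68.5 and 31.5) just inside, and ELOCP19 49.98 (69.5 and 30.5) just outside.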

Additional observations from a re-analysis of the deposited data

How the results depend on the processing

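The count of higher genes was 342, and 576 under total counts, 1010 with a minimum mean count of 10, 188 with a minimum of 200 and 1224 with no minimum. The count of lower genes was 460, and 289 under total counts, 1039 with a minimum of 10 and 1261 with no minimum. All 342 higher genes were among the 576 under total counts, and the 289 lower genes there were all among the 460. Total counts add about 0.16 to every log2 ratio, which fixes this nesting almost in advance. With edgeR's TMM, size factors over 4 libraries, upper quartile or a pseudocount of 5 both counts stayed within 1.5 times. Of the 153 called genes that the naming rule took, 133 were still called under total counts. None changed sign in any scaling or with the larger pseudocount, but neither could reverse a 2-fold call. A scaling shifts all log2 ratios alike, by at most about 0.16, and a pseudocount keeps the direction of a ratio. Of 61 lists with at least 3 measured genes, 13 medians changed sign under total counts and 14 under upper quartile. Medians that moved by 0.2 or more numbered 16 of 628, mostly small RNAs under another minimum. The scalings shift ratios by at most about 0.16, under this limit, so they had little room to reach it. None of the 16 came from a scaling. No paired analysis was possible because each group has 1 library.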

Other observations

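Several lists not described above had few calls or none. Interferon response genes had a median log2 ratio of 0.22 over 21 genes, 16 of them above 0, and no call. Of these genes 19 were also above 0 between the inputs, with a median of 0.14. On the beads IFIT1 was at 0.81 and ISG15 at 0.66. Aminoacyl-tRNA synthetases, which charge tRNAs, had a median of 0.22 with 29 of 37 above 0 and NARS2 called lower at -1.32. DNA repair genes had a median of 0.16 over 37 genes and no call. Cholesterol and fatty acid synthesis had a median of 0.06 over 28 genes, with INSIG2, which retains the sterol sensor in the endoplasmic reticulum, called lower at -1.23. Solute carriers, with 183 genes measured, had a median of -0.03. Called higher were 7 and lower 10, beside 2.58% and 3.48% of all genes. SLC25A23, a mitochondrial carrier, was highest at 1.84 and SLC33A1, which brings acetyl-CoA into the endoplasmic reticulum, lowest at -1.97. The mitochondrial chaperone HSPD1 had 97963 against 199232 normalised counts (log2 -1.02) in a chaperone list with a median of 0.04. Of telomere genes other than TERT, the shelterin member ACD was called higher at 1.06, and TERF1 was at -0.20. HOX genes had a median of -0.19, and HOXA3 (1.17) was the single one called of 17, beside 2.58% of all genes called higher. WNT and NOTCH genes had a median of -0.16 over 28 genes, with the NOTCH target HEY1 called lower at -1.04. Forkhead and SOX factors had a median of -0.22 over 25 genes, with 7 above 0 and an input median of -0.16. In this list 1 gene was called higher and 3 lower, beside 2.58% and 3.48% of all genes. Its member SOX9 had 217 against 538 (log2 -1.30) from inputs that already differed by -1.73.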
